A study of Homo sapiens with 18 samples.

Results

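The 9 genes TRIM31, ADGRF1, AGFG2, ARPC5, ATP5J2, BAIAP2-AS1, CAPN5, DHTKD1 and ENDOD1 were taken by name from the expression tables, which list 58302 genes each. They were selected on these same FPKM values, as less-studied genes seen lower in SYK-depleted cells of all 3 cell lines. The difference between SYK-depleted and control cells is therefore given for them as a description, without a test. RNA-seq libraries came from 3 lung cancer cell lines, EBC-1 (MET amplification), PC-9 and HCC827 (both with an EGFR exon 19 deletion). In each line, cells that stably carry 1 short hairpin RNA against SYK (shSYK), delivered by a lentivirus, were compared with negative control cells (nc), and each of the 6 groups had 3 libraries. The stable cells were made with a single hairpin clone, so an effect of lower SYK and any other effect of that hairpin cannot be told apart, and no source states that the libraries came from separate cultures, so the spread between them may be technical.

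SYK is a cytoplasmic tyrosine kinase best known for carrying signals from immune receptors, and it is also expressed in epithelial cells. A short hairpin RNA is processed to a small guide strand that directs cleavage of messages with full complementarity. The same strand can lower other messages that pair only with its first bases, called the seed. The 9 genes do not belong to 1 pathway. They encode a membrane receptor, a ubiquitin ligase, a calcium-dependent type of protease, an actin nucleator subunit, a trafficking protein, a subunit of the ATP synthase, an enzyme of lysine breakdown, a putative endonuclease and a long noncoding RNA.

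Levels are in FPKM, fragments scaled to gene length and library size, as deposited by the authors, and between 7920099 and 15729103 reads per library lay on genes. SYK itself (ENSG00000165025) was measured first as a check of the labels. SYK was at 15.1, 13.1 and 14.4 FPKM in the EBC-1 nc libraries and at 7.63, 7.25 and 7.41 FPKM with shSYK. In PC-9 cells SYK was at 7.31, 6.04 and 6.17 FPKM against 2.28, 1.64 and 2.34 FPKM. In HCC827 cells SYK was at 9.05, 8.45 and 9.74 FPKM against 2.46, 3.16 and 3.36 FPKM. The mean left, as a percent of nc, was 52.3% (EBC-1), 32.1% (PC-9) and 32.9% (HCC827), and the groups did not overlap in any line. All 5 epithelial markers examined (KRT8, KRT18, KRT19, EPCAM and CDH1) were present in every library, at 30.96 to 2777 FPKM. In EBC-1 and HCC827, the endothelial markers stayed at or below 0.215 FPKM, leukocyte markers reached at most 1.62 FPKM (CD14 in HCC827) and the highest fibroblast marker was COL1A1 at 2.47 FPKM in EBC-1. PC-9 libraries held PECAM1 at 4.28 to 14.4 FPKM, CDH5 at 2.16 to 2.57 FPKM and COL1A1 at 5.43 to 8.29 FPKM, with VWF, COL3A1 and PDGFRA at or below 0.185 FPKM, and the part of these levels in the results was not tested.

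All 9 genes were lower in shSYK than in nc cells in all 3 lines, and for all 9 the highest shSYK library lay below the lowest nc library in each line. The genes were chosen for the lower level, and the separation comes from the same values, so neither is a test. Of all genes tested, those with a mean of at least 1 FPKM in a line, 27.2% (EBC-1), 12.3% (PC-9) and 27.6% (HCC827) were lower without overlap. Of 10030 genes tested in every line, 320 (3.19%) were lower without overlap in all 3, and 3.86% were higher in the same way. The median level left was 61.3% of nc in EBC-1 (range 20.1% to 77.7%), 49.97% in PC-9 (42.3% to 67.6%) and 47.5% in HCC827 (28.2% to 72.1%). On the log2(FPKM + 1) scale, the median differences were -0.60, -0.93 and -0.96, while the medians of all genes tested were 0.01, 0.01 and -0.01. The level was halved or more in 1 of the 9 genes in EBC-1 and in 5 of the 9 in each of PC-9 and HCC827. The share of all genes tested that were halved was not counted, so these counts have no background beside them. ADGRF1, ARPC5, ATP5J2, CAPN5 and ENDOD1 had their smallest log2 difference in EBC-1, the line that kept the most SYK, whereas AGFG2, BAIAP2-AS1 and DHTKD1 had theirs in HCC827. TRIM31 had its smallest in PC-9 (-1.048, beside -1.049 in EBC-1), and as a percent of nc it kept the least in EBC-1 (20.1%). A relation to the SYK level was not tested. When the 320 genes were ordered by the smallest of their 3 differences, from the largest downwards, TRIM31 was at place 2, CAPN5 at 10, BAIAP2-AS1 at 13, AGFG2 at 48, ATP5J2 at 55, ARPC5 at 85, ENDOD1 at 104, DHTKD1 at 129 and ADGRF1 at 135. In bulk libraries, fewer cells that express a gene and less RNA of it per cell cannot be told apart.

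**Figure D1:**
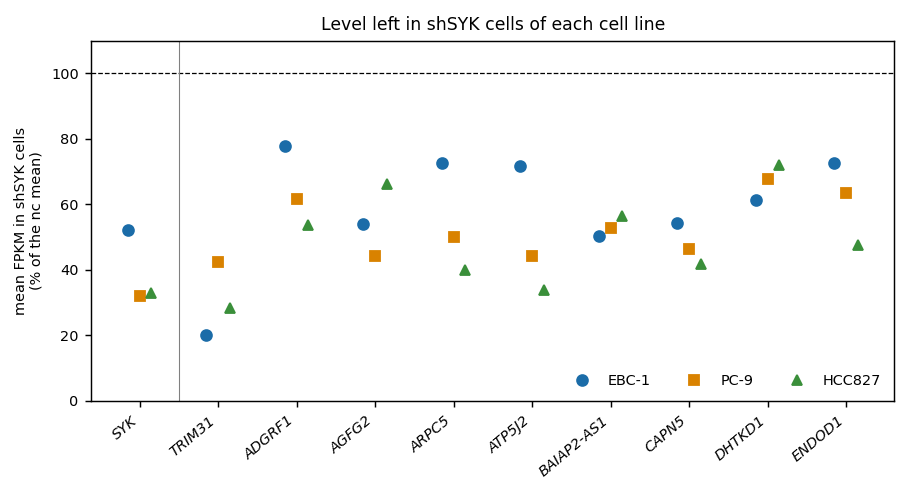
Mean FPKM in shSYK cells as a percent of the nc mean (vertical axis) for SYK and the 9 genes (horizontal axis), with circles for EBC-1, squares for PC-9 and triangles for HCC827 and a dashed line at 100%. Every point lies below the line, from 20.1% for TRIM31 in EBC-1 to 77.7% for ADGRF1 in EBC-1, and BAIAP2-AS1 has the tightest set of points (50.3% to 56.4%).

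**Figure D2:**
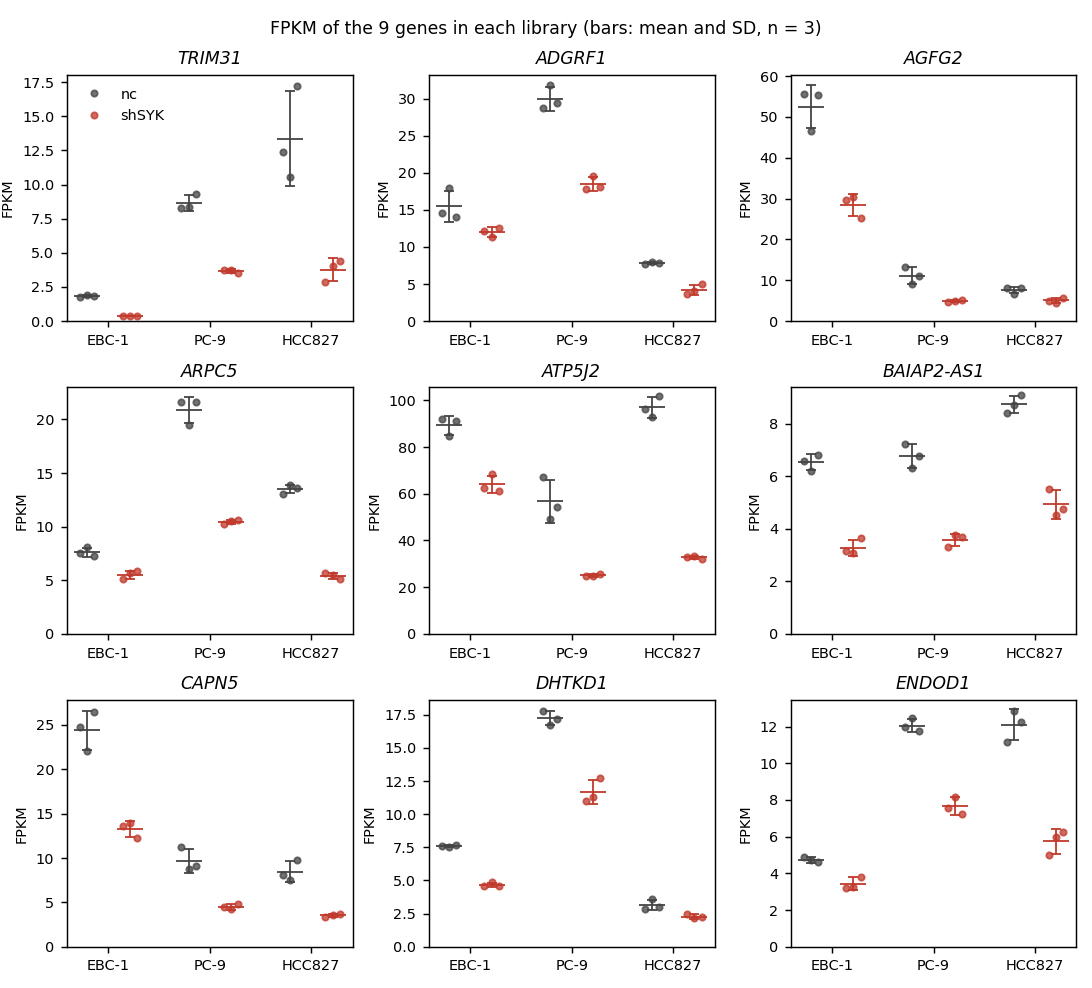
FPKM of each of the 9 genes in every library, nc in grey and shSYK in red, by cell line; dots are libraries and bars are the mean and SD of 3 libraries, and every vertical axis starts at 0. The red dots lie below the grey dots of the same line in all panels, while the height of the grey dots differs between lines.

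To set each gene beside its own family, complex or pathway, 78 related genes were examined, of which 64 were tested in each line with limma on log2(FPKM + 1). In EBC-1, 14 of the 64 fell and 20 rose (adjusted p under 0.05), beside 21.6% and 23.1% of all genes tested. In HCC827, 13 fell and 10 rose, beside 20.7% and 17.2%. In PC-9, where 1.41% of all genes fell and 0.678% rose, ADGRF5 alone fell and none rose (2.09% of all genes were called in either direction, 44.7% in EBC-1 and 38% in HCC827), with 9 of the 64 at an unadjusted p under 0.05 and 1 lower and 1 higher when voom was run on reads recovered from the FPKM values. The median log2 difference of the 64 relatives was 0.08 (EBC-1), 0.08 (PC-9) and 0.02 (HCC827), and the shSYK and nc levels of each gene's relatives are given with that gene.

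TRIM31 (ENSG00000204616, chr6:30102897-30113106 on the minus strand, hg38) encodes a ubiquitin ligase of the tripartite motif family that acts on innate immune proteins, among them NLRP3 and MAVS. In EBC-1 cells TRIM31 was at 1.74, 1.88 and 1.87 FPKM in nc and 0.364, 0.387 and 0.354 FPKM in shSYK libraries. In PC-9 cells TRIM31 stood at 8.28, 8.37 and 9.31 FPKM against 3.76, 3.74 and 3.48 FPKM. In HCC827 cells TRIM31 was measured at 12.4, 10.5 and 17.2 FPKM against 2.83, 4.07 and 4.43 FPKM. It was the least expressed of the 9 genes in EBC-1, with 16 to 85 reads per library, and kept 20.1% of its nc mean there, against 42.3% (PC-9) and 28.2% (HCC827). The nc libraries of HCC827 spread widely, and the highest shSYK library there was at 42.1% of the lowest nc library. On the log2(FPKM + 1) scale, which understates the change of a low gene, the differences were -1.05, -1.05 and -1.58. Its relatives examined were other genes of the family on chromosome 6, NLRP3 and MAVS. Of 5 tested in EBC-1, 2 fell and TRIM38 rose (0.46 ± 0.12, adjusted p = 0.0203). The TRIM38 call was lost in 4 of the 6 fits without 1 library (nc replicate 1 or 3, shSYK replicate 2 or 3, adjusted p 0.0553 to 0.06503) and without a filter on low values (adjusted p = 0.069999). The count that fell in EBC-1 was 1 under an equal sum, quantile normalization, the replicate block or no filter. In HCC827, 4 of 6 fell and none rose, among them TRIM15 (-1.19 ± 0.16, adjusted p = 0.00149), from 6.48 to 2.26 FPKM, and TRIM26 (-0.59 ± 0.09, adjusted p = 0.00215), from 20.9 to 13.6 FPKM. MAVS, the mitochondrial adaptor of RNA sensing and no member of the family, is named after its values were seen. It was among those that fell in EBC-1 (-0.39 ± 0.07, adjusted p = 0.00393) and in HCC827 (-0.35 ± 0.06, adjusted p = 0.00398), gave -0.34 ± 0.11, adjusted p = 0.192 in PC-9, and did not overlap between groups in any line. TRIM27, of the family and also named after its values were seen, fell in the same lines as MAVS. It gave -0.25 ± 0.08, adjusted p = 0.0348 in EBC-1 and -0.35 ± 0.10, adjusted p = 0.0293 in HCC827, but 0.10 ± 0.13, adjusted p = 0.793 in PC-9. In PC-9 none of 5 passed the test, 2 had an unadjusted p under 0.05 and voom called none, and the difference furthest from 0 was that of TRIM26 (-0.38 ± 0.16, adjusted p = 0.312). The antisense gene TRIM31-AS1 overlaps TRIM31. It fell in HCC827 (-0.53 ± 0.14, adjusted p = 0.0198) and gave -0.38 ± 0.16, adjusted p = 0.322 in PC-9, on as few as 4 reads, and was under the level tested in EBC-1. The HCC827 call was lost without shSYK replicate 3 (adjusted p = 0.0631), with voom and without a filter (adjusted p 0.06499 to 0.132). Since the strand setting of the read counting is not given in the sources used here, reads of the overlapping pair may be shared between them.

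The TRIM31 start window is shown because it was the only 1 of the 7 windows found with a TATA box. Windows of 300 bases (250 before and 50 after the start, RefSeq, GRCh38.p14, sense strand of the gene) were found for 7 of the 9 genes, all but ATP5J2 and CAPN5. Capitals mark a TATA box, TATAAA on either strand, which is present in 11.5% of all 35116 windows; here it reads on the opposite strand.
TRIM31 chr6:30113041-30113340: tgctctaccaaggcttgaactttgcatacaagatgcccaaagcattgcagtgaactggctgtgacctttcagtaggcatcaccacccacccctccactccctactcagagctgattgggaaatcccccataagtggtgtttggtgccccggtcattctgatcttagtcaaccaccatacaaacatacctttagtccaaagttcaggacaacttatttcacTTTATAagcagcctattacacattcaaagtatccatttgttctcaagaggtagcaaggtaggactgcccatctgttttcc
The TRIM31 window had 45.7% G and C, the lowest of the 7, against a median of 58.7% over all windows.

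ADGRF1 (ENSG00000153292, chr6:46997703-47042363, minus strand), also known as GPR110, encodes an adhesion G protein-coupled receptor, a type of membrane receptor with a long extracellular part. In EBC-1 cells ADGRF1 was at 14.6, 17.9 and 13.98 FPKM in nc and 12.2, 11.3 and 12.6 FPKM in shSYK libraries. In PC-9 cells ADGRF1 stood at 28.7, 31.9 and 29.5 FPKM against 17.9, 19.6 and 18.04 FPKM. In HCC827 cells ADGRF1 was measured at 7.69, 7.99 and 7.77 FPKM against 3.59, 4.05 and 4.98 FPKM. The groups were separate in each line, most narrowly in EBC-1, where the highest shSYK library was at 89.9% of the lowest nc library. The level left was 77.7% (EBC-1), 61.6% (PC-9) and 53.8% (HCC827), with log2 differences of -0.33, -0.67 and -0.77. Its neighbor and relative ADGRF5, 42760 bases away, was tested in PC-9 only, since its nc mean was at or below 0.03399 FPKM in the other lines, and fell in PC-9 from 44.3 to 24.4 FPKM (-0.83 ± 0.11, adjusted p = 0.0157). That call was lost in 4 of the 6 fits that left out 1 PC-9 library (nc replicate 3 or any of the 3 shSYK replicates, adjusted p 0.104 to 0.129). ADGRF4 rose in EBC-1 at a low level, from 0.781 to 1.404 FPKM (0.43 ± 0.13, adjusted p = 0.0311), a call lost in 3 of 6 such fits (nc replicate 1 or 3, shSYK replicate 2, adjusted p 0.0659 to 0.09605), without a filter and with the replicate block (adjusted p 0.0765 to 0.0871), and gave 0.38 ± 0.15, adjusted p = 0.07995 in HCC827. ADGRF4 was called in HCC827 without nc replicate 3 (adjusted p = 0.01402) and by voom (adjusted p = 0.0357).

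CAPN5 (ENSG00000149260, chr11:77066932-77126155, plus strand) encodes calpain-5, a member of a family of calcium-dependent cysteine proteases. In EBC-1 cells CAPN5 was at 24.7, 22.04 and 26.4 FPKM in nc and 13.6, 13.9 and 12.2 FPKM in shSYK libraries. In PC-9 cells CAPN5 stood at 11.3, 8.73 and 9.05 FPKM against 4.43, 4.21 and 4.81 FPKM. In HCC827 cells CAPN5 was measured at 8.03, 7.57 and 9.799 FPKM against 3.36, 3.55 and 3.74 FPKM. The difference was of similar size in all lines: 54.3% (EBC-1), 46.3% (PC-9) and 41.96% (HCC827) of nc was left. No shSYK library of CAPN5 exceeded 63.2% of the lowest nc library of its line. Among the other calpains and the inhibitor calpastatin (CAST), 3 of 8 fell and 1 rose in EBC-1, and 3 of 8 fell and 1 rose in HCC827. The number that fell depended on single libraries and on the scaling. It was 1 to 3 in EBC-1 and 2 to 4 in HCC827 when 1 library was left out, and 1 and 2 under an equal sum, while the 1 that rose in HCC827 was lost with the replicate block. CAPN8 fell in both, from 5.604 to 2.96 FPKM in EBC-1 (-0.74 ± 0.08, adjusted p = 6.38e-04) and from 3.12 to 1.65 FPKM in HCC827 (-0.66 ± 0.14, adjusted p = 0.00997). CAPN8 in PC-9 gave -0.34 ± 0.16, adjusted p = 0.356, and it was called there without nc replicate 1 (adjusted p = 0.0439). In that line none of the 10 tested passed the limma test, none had an unadjusted p under 0.05 and voom called none.

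ARPC5 (ENSG00000162704, chr1:183620846-183635757, minus strand) encodes the smallest subunit of the Arp2/3 complex, which starts branched actin filaments at the leading edge of cells and at endosomes. In EBC-1 cells ARPC5 was at 7.56, 8.08 and 7.22 FPKM in nc and 5.12, 5.63 and 5.83 FPKM in shSYK libraries. In PC-9 cells ARPC5 stood at 21.6, 19.5 and 21.7 FPKM against 10.2, 10.5 and 10.6 FPKM. In HCC827 cells ARPC5 was measured at 13.1, 13.9 and 13.6 FPKM against 5.65, 5.48 and 5.13 FPKM. The level left was 72.5% (EBC-1), 49.97% (PC-9) and 40.1% (HCC827), and the shSYK libraries of PC-9 and HCC827 were tightly grouped. None of the other subunits and activators of the complex fell in EBC-1, where 5 of 12 rose at adjusted p under 0.05 (6 with voom, 8 under an equal sum) and 0 had a lower call with either tool. ACTR2 rose there from 20.9 to 38.1 FPKM (0.84 ± 0.08, adjusted p = 4.31e-04), ARPC5L, the close paralogue that can take the place of ARPC5 in the complex, rose from 22.8 to 34.1 FPKM (0.56 ± 0.07, adjusted p = 0.00102), and cortactin (CTTN), which binds the complex, rose from 81.9 to 110.1 FPKM (0.42 ± 0.06, adjusted p = 0.00165). ARPC5L in PC-9 and HCC827 gave 0.18 ± 0.12, adjusted p = 0.541 and 0.03 ± 0.06, adjusted p = 0.663. In HCC827, 3 of 12 relatives rose and 1 fell. ACTR2 gave 0.22 ± 0.05, adjusted p = 0.01704, a call lost without nc replicate 1 or shSYK replicate 3 (adjusted p 0.0521 to 0.0697), and ACTR3B fell (-0.36 ± 0.10, adjusted p = 0.0221), which was lost in 4 of 6 fits without 1 library (nc or shSYK replicate 2 or 3, adjusted p 0.0649 to 0.0732), with the replicate block and without a filter (adjusted p 0.0505 to 0.0703). In PC-9 none of 11 passed, 1 had an unadjusted p under 0.05 and voom called none, and CTTN was furthest from 0 (-0.24 ± 0.10, adjusted p = 0.302). The median log2 difference of the 12 relatives was 0.29 (EBC-1), 0.15 (PC-9, 11 tested) and 0.09 (HCC827), above 0 under all scalings tried, beside -0.40, -0.93 and -1.18 for ARPC5. Whether ARPC5 differed from the relatives beyond the choice of ARPC5 for its lower level was not tested.

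The ARPC5 start window is shown because ARPC5 lies head to head with RGL1, with 328 bases between the genes. It was also the only 1 of the 7 windows with a match to TGANTCA, a loose form of the AP-1 motif. AP-1 is a dimer of FOS and JUN proteins. In this form N is any base. The match here reads TGAATCA and lies after the start, and binding was not tested. Capitals mark TGANTCA (in 7.71% of all windows) and the GC box GGGCGG, the site read by Sp1 (in 45% of all windows), on either strand.
ARPC5 chr1:183635734-183636033: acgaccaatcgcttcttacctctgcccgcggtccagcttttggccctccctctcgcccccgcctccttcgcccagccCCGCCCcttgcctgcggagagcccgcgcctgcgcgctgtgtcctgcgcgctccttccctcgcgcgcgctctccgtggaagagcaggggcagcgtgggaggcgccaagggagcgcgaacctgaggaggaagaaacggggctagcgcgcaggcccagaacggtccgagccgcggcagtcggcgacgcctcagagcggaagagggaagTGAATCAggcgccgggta
RGL1, a Ral guanine nucleotide exchange factor gene, was lower in shSYK cells of all 3 lines without overlap. It fell from 1.58 to 1.05 FPKM in EBC-1 (-0.33 ± 0.12, adjusted p = 0.0484) and from 2.397 to 1.27 FPKM in PC-9 (-0.58 ± 0.11, adjusted p = 0.0451), and gave -0.23 ± 0.08, adjusted p = 0.0607 in HCC827. Both calls were close to the threshold. The EBC-1 call was lost in 5 of 6 fits without 1 library (all but nc replicate 3, adjusted p 0.0761 to 0.149), and under an equal sum, a pseudocount of 0.1, the replicate block or no filter (adjusted p 0.0563 to 0.123). The PC-9 call was lost in 4 of 6 (nc replicate 3 or any shSYK replicate, adjusted p 0.152 to 0.223), and with the replicate block or no filter (adjusted p 0.0913 to 0.135). The HCC827 difference was called without nc replicate 3 (adjusted p = 0.04199) and under quantile normalization (adjusted p = 0.0359).

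AGFG2 (ENSG00000106351, chr7:100539211-100568219, plus strand) encodes a protein with an ArfGAP domain and phenylalanine-glycine repeats, related to the endocytic adaptor AGFG1. In EBC-1 cells AGFG2 was at 55.7, 46.6 and 55.3 FPKM in nc and 29.7, 30.3 and 25.3 FPKM in shSYK libraries. In PC-9 cells AGFG2 stood at 13.2, 9.19 and 11.01 FPKM against 4.57, 5.001 and 5.16 FPKM. In HCC827 cells AGFG2 was measured at 8.06, 6.71 and 8.13 FPKM against 5.02, 4.497 and 5.63 FPKM. EBC-1 held several times more AGFG2 than the other lines, and the groups were closest in HCC827, where the highest shSYK library was at 83.9% of the lowest nc library. The level left was 54.1% (EBC-1), 44.1% (PC-9) and 66.2% (HCC827), with log2 differences of -0.86, -1.03 and -0.51. AGFG1 rose in EBC-1, from 4.08 to 5.504 FPKM (0.36 ± 0.08, adjusted p = 0.0108), and gave 0.01 ± 0.12, adjusted p = 0.986 in PC-9 and 0.05 ± 0.06, adjusted p = 0.5303 in HCC827. SMAP2, another ArfGAP, rose in EBC-1 (0.46 ± 0.09, adjusted p = 0.00489). EPS15, an endocytic adaptor that binds AGFG1, rose in HCC827 (0.41 ± 0.08, adjusted p = 0.00621) and in EBC-1 (0.43 ± 0.11, adjusted p = 0.0187), and the latter call was lost in 3 of 6 fits without 1 library (nc replicate 1, nc replicate 3 or shSYK replicate 3, adjusted p 0.0582 to 0.0663) and without a filter (adjusted p = 0.0634). In all, 1 of 7 relatives fell and 3 rose in EBC-1, and 2 of 8 fell and 1 rose in HCC827. The EBC-1 count that fell was 0 under an equal sum, the replicate block or either other filter, and the HCC827 count was 1 under quantile normalization or no filter. None of 8 passed in PC-9, with none at an unadjusted p under 0.05 and none called by voom, and EPS15 was furthest from 0 there (0.20 ± 0.14, adjusted p = 0.564).

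The neighbor of AGFG2 on its lower-coordinate side, NYAP1, 44412 bases away, encodes a protein known from phosphoinositide 3-kinase signaling in neurons. NYAP1 was at 5.54, 4.11 and 5.86 FPKM in EBC-1 nc libraries and at 0.939, 1.001 and 0.554 FPKM with shSYK. In PC-9 it was at 2.46, 1.85 and 2.22 FPKM against 0.867, 0.508 and 0.797 FPKM. It fell in both, by 1.75 (log2) in EBC-1 (± 0.15, adjusted p = 2.53e-04) and by 0.88 in PC-9 (± 0.14, adjusted p = 0.0283), and was under the level tested in HCC827. The EBC-1 call held in all 6 fits without 1 library, and the PC-9 call was lost in 4 of 6 (nc replicate 3 or any shSYK replicate, adjusted p 0.116 to 0.161) and without a filter (adjusted p = 0.0964).

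ATP5J2 (ENSG00000241468, chr7:99448475-99466331, minus strand), now named ATP5MF, encodes subunit f in the membrane part of the mitochondrial ATP synthase. In EBC-1 cells ATP5J2 was at 92.1, 84.8 and 91.3 FPKM in nc and 62.5, 68.3 and 61.2 FPKM in shSYK libraries. In PC-9 cells ATP5J2 stood at 67.1, 49.1 and 54.1 FPKM against 24.8, 24.7 and 25.8 FPKM. In HCC827 cells ATP5J2 was measured at 96.3, 92.99 and 102 FPKM against 32.9, 33.5 and 32.1 FPKM. It was the most abundant of the 9 genes per length in every nc group, and its groups lay furthest apart in HCC827, where the highest shSYK library was at 36.05% of the lowest nc library. The level left was 71.6% (EBC-1), 44.2% (PC-9) and 33.9% (HCC827), with log2 differences of -0.48, -1.13 and -1.53. The other 19 genes of the enzyme examined, its inhibitor included, had median log2 differences of 0.13, 0.17 and 0.10, above 0 under all scalings tried. In EBC-1, 8 rose and 4 fell. The split was 12 and 3 under an equal sum and 6 and 1 without a filter, and 5 to 7 rose and 2 to 4 fell when 1 library was left out. ATP5F1 rose from 20.5 to 32.3 FPKM (0.63 ± 0.08, adjusted p = 9.67e-04) and USMG5 from 41.9 to 55.6 FPKM (0.40 ± 0.07, adjusted p = 0.00437), while both subunits encoded in mitochondrial DNA fell, MT-ATP6 (-0.47 ± 0.07, adjusted p = 0.00198) and MT-ATP8 (-0.51 ± 0.13, adjusted p = 0.0173), the latter lost in 3 of 6 fits without 1 library (nc replicate 1, shSYK replicate 1 or shSYK replicate 2, adjusted p 0.0511 to 0.0646) and without a filter (adjusted p = 0.0724). The other calls that fell in EBC-1 were nuclear genes, ATP5D (-0.46 ± 0.11, adjusted p = 0.0143) and ATP5G2 (-0.29 ± 0.06, adjusted p = 0.00967). MT-ATP6, ATP5D and ATP5G2 are named after their values were seen. In HCC827, 3 rose, ATP5F1 among them (0.31 ± 0.06, adjusted p = 0.00708), and MT-ATP6 alone fell (-0.38 ± 0.13, adjusted p = 0.0464), close to the threshold. MT-ATP8 gave 0.03 ± 0.23, adjusted p = 0.938 in that line. None fell under an equal sum, quantile normalization, the replicate block or no filter, and 0 to 1 when 1 library was left out, while 6 rose under an equal sum or quantile normalization. USMG5 was furthest from 0 at 0.41 ± 0.18, adjusted p = 0.105 and was called by voom (adjusted p = 0.007204). In PC-9 none of 19 passed, 5 had an unadjusted p under 0.05 and voom called 1, and MT-ATP8 was furthest from 0 (-0.74 ± 0.25, adjusted p = 0.202).

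ATP5J2 overlaps CPSF4, PTCD1 and the readthrough gene ATP5J2-PTCD1 in the tables, and the counting rule for overlaps is not given in the sources used here. CPSF4, a subunit of the polyadenylation machinery, fell in HCC827 (-0.24 ± 0.05, adjusted p = 0.00905) and gave -0.23 ± 0.09, adjusted p = 0.0711 in EBC-1 and -0.02 ± 0.13, adjusted p = 0.972 in PC-9. The EBC-1 difference was called without nc replicate 2 (adjusted p = 0.01504). PTCD1 was not called where it was tested, and ATP5J2-PTCD1 was at or below 0.0276 FPKM in the nc means of all lines.

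**Figure D3:**
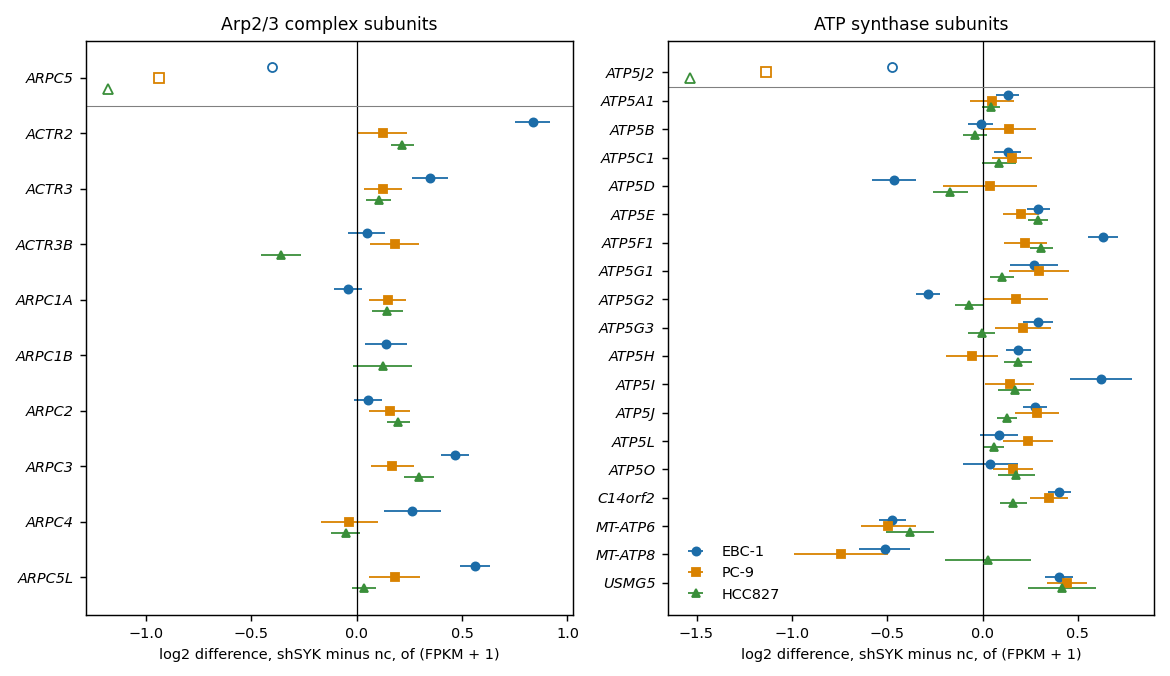
Log2 differences (shSYK minus nc) of FPKM + 1 on the horizontal axis for ARPC5 and 9 other Arp2/3 subunits (left) and for ATP5J2 and 18 other ATP synthase subunits (right), by cell line; bars are standard errors of the limma fit, and the 2 chosen genes are open symbols without a bar. ARPC5 and ATP5J2 lie left of 0 in all lines, while most other subunits lie at or right of 0.

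DHTKD1 (ENSG00000181192, chr10:12068972-12123225, plus strand) encodes the first component of the mitochondrial 2-oxoadipate dehydrogenase complex, which acts in the breakdown of lysine, hydroxylysine and tryptophan. In EBC-1 cells DHTKD1 was at 7.62, 7.55 and 7.64 FPKM in nc and 4.56, 4.87 and 4.57 FPKM in shSYK libraries. In PC-9 cells DHTKD1 stood at 17.8, 16.8 and 17.2 FPKM against 11.03, 11.3 and 12.7 FPKM. In HCC827 cells DHTKD1 was measured at 2.88, 3.58 and 3.02 FPKM against 2.46, 2.14 and 2.24 FPKM. The groups were clearly apart in EBC-1 and PC-9, while in HCC827, the line with the lowest level, the highest shSYK library was at 85.5% of the lowest nc library. The level left was 61.3% (EBC-1), 67.6% (PC-9) and 72.1% (HCC827). Other genes of the same route moved in both directions. Of 7 tested in EBC-1, 3 fell and 1 rose, and of 5 tested in HCC827, 2 fell and 2 rose. When 1 library was left out, 1 to 4 fell in EBC-1 and 1 to 2 in HCC827. The HCC827 count that fell was 3 with voom and 1 under an equal sum. In EBC-1, GCDH, the next enzyme of the pathway, fell from 8.73 to 4.7998 FPKM (-0.75 ± 0.09, adjusted p = 7.45e-04). AASS, which takes the first step of lysine breakdown, also fell (-0.49 ± 0.13, adjusted p = 0.0181), as did the aldehyde dehydrogenase ALDH7A1 (-0.26 ± 0.08, adjusted p = 0.0261), while DLD, the dihydrolipoamide dehydrogenase shared with other complexes, rose from 25.3 to 37.8 FPKM (0.57 ± 0.11, adjusted p = 0.00445). The AASS call was lost without nc replicate 1 or shSYK replicate 3 (adjusted p 0.0554 to 0.07205) and the ALDH7A1 call in 5 of 6 fits without 1 library (all but nc replicate 2, adjusted p 0.0508 to 0.0901). Without a filter the AASS call was lost (adjusted p = 0.0618), as was the ALDH7A1 call, also under an equal sum and the replicate block (adjusted p 0.0566 to 0.1299). In HCC827, ALDH7A1 rose from 1.71 to 3.01 FPKM (0.56 ± 0.09, adjusted p = 0.00393) and DLD rose (0.37 ± 0.07, adjusted p = 0.00545), and GCDH fell (-0.20 ± 0.07, adjusted p = 0.0491), a call lost whichever of the 6 libraries was left out (adjusted p 0.0555 to 0.141) and under an equal sum, quantile normalization, the replicate block or no filter (adjusted p 0.0712 to 0.108). DLD was furthest from 0 in PC-9 (0.30 ± 0.15, adjusted p = 0.382), where none of 5 passed, none had an unadjusted p under 0.05 and voom called none.

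ENDOD1 (ENSG00000149218, chr11:95089810-95132645, plus strand) encodes a protein with an endonuclease-like domain about which little is established. In EBC-1 cells ENDOD1 was at 4.89, 4.71 and 4.59 FPKM in nc and 3.23, 3.26 and 3.83 FPKM in shSYK libraries. In PC-9 cells ENDOD1 stood at 11.97, 12.4 and 11.7 FPKM against 7.56, 8.18 and 7.23 FPKM. In HCC827 cells ENDOD1 was measured at 11.2, 12.8 and 12.3 FPKM against 4.997, 5.98 and 6.27 FPKM. PC-9 and HCC827 nc cells held it at about the same level, but the shSYK libraries of HCC827 lay below those of PC-9. The level left was 72.7% (EBC-1), 63.5% (PC-9) and 47.5% (HCC827), with log2 differences of -0.37, -0.59 and -0.96. The mitochondrial nucleases of the same superfamily, ENDOG and EXOG, were not called by limma in any line, and 1 of the 2 had an unadjusted p under 0.05 in HCC827, where voom called 1 of them. EXOG gave 0.13 ± 0.13, adjusted p = 0.458 in EBC-1 and -0.31 ± 0.13, adjusted p = 0.0997 in HCC827, and ENDOG gave 0.24 ± 0.22, adjusted p = 0.687 in PC-9, where it alone was tested.

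BAIAP2-AS1 (ENSG00000226137, chr17:81029130-81034881, minus strand), now named BAIAP2-DT, is a long intergenic noncoding RNA gene that lies head to head with BAIAP2, with 241 bases between them. BAIAP2 encodes IRSp53, a scaffold that links small GTPases to actin at membrane protrusions. In EBC-1 cells BAIAP2-AS1 was at 6.595, 6.22 and 6.803 FPKM in nc and 3.14, 3.08 and 3.64 FPKM in shSYK libraries. In PC-9 cells BAIAP2-AS1 stood at 7.24, 6.33 and 6.77 FPKM against 3.31, 3.75 and 3.67 FPKM. In HCC827 cells BAIAP2-AS1 was measured at 8.41, 8.72 and 9.08 FPKM against 5.54, 4.51 and 4.74 FPKM. The groups were well apart and the size was even between lines, with 50.3% (EBC-1), 52.7% (PC-9) and 56.4% (HCC827) left. BAIAP2 fell in EBC-1, from 17.7 to 13.9 FPKM (-0.33 ± 0.08, adjusted p = 0.0131), which was lost without nc replicate 1 (adjusted p = 0.0581), and gave 0.03 ± 0.12, adjusted p = 0.956 in PC-9 and 0.07 ± 0.07, adjusted p = 0.476 in HCC827, where the groups overlapped. BAIAP2L2 was the relative furthest from 0 in the last 2 lines (-0.50 ± 0.25, adjusted p = 0.398 and -0.36 ± 0.12, adjusted p = 0.0522), and in HCC827 it was called without nc replicate 1 (adjusted p = 0.0406), with the filter at 5 FPKM, with the replicate block and by voom (adjusted p 0.0187 to 0.0323). Its start window, which faces that of BAIAP2, is shown for this arrangement, and capitals mark the GC box GGGCGG on either strand.
BAIAP2-AS1 chr17:81034670-81034969: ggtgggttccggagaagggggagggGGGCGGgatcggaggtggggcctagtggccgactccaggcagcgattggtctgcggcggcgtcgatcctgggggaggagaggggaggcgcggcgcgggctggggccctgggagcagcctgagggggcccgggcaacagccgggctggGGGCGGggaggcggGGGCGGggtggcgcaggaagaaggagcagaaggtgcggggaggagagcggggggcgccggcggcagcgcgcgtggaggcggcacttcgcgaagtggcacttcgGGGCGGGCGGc
It held 5 GC boxes and 77.3% G and C, the highest of the 7 windows.

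Across the 7 start windows, the GC box was found in 5 (AGFG2, ARPC5, BAIAP2-AS1, DHTKD1 and ENDOD1), beside 45% of all windows. Those 5 windows held 67.7% to 77.3% G and C, against a median of 58.7% over all windows. CAGACA, a SMAD-like motif, was in 2 (ADGRF1 and DHTKD1, beside 16.9% of all windows), and TGANTCA and the TATA box were in 1 each. No motif was in all 7. A match is a stretch of letters and not evidence of binding.

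The hairpin's own sequence was not used here, so a match of its seed to the 9 transcripts was not tested. As a description of what a guide cut from SYK could share with them, the transcripts of each gene were compared with the 5 SYK transcripts (GENCODE v44). The longest run shared with the SYK coding sequence was 10 to 12 bases on the same strand and 11 to 13 bases on the opposite strand for all 9 genes. A run of 12 or more bases was shared by the longest transcript of 2 of the 9 genes on the same strand and of 4 on the opposite strand, beside 46.6% and 42.8% of 9995 other genes. No member and none of those genes shared 21 bases, about the length of a guide, with the SYK coding sequence. With whole SYK transcripts, ADGRF1 shared 22 bases, and BAIAP2-AS1 and DHTKD1 shared at least 31, the longest run searched, on the same strand, all in the SYK 3′ untranslated region, beside 13.1% of all genes sharing 21 or more. On the opposite strand, ADGRF1 shared 30 and ARPC5 27 bases, beside 14.4% of all genes. CAPN5 shared 20 and DHTKD1 17 bases on the opposite strand, also in the SYK 3′ untranslated region, and the others 12 to 14. A run of 15 or more was shared on that strand by the longest transcript of 2 of the 9 genes, beside 26.3% of the other genes. The genes not named above for the same strand shared 11 to 16 bases on it. Of the 4054 distinct 7-base words of SYK, the length of a seed, 6.59% were in the longest ATP5J2 transcript (774 bases) and 49.1% in that of ADGRF1 (9130 bases), the lowest and highest of the 9, beside a median of 24.6% over the other genes, whose median length was 3576 bases. The shortest of these 9 transcripts thus held the lowest share and the longest the highest.

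The nc libraries were also compared between lines. The choice of the 9 genes used the nc values within each line, although not the differences between lines, so these levels are not independent of it. Each line has a table of its own, so cell line and table cannot be told apart. Of 27 comparisons of 9 genes in 3 pairs of lines, 23 passed the limma test (adjusted p under 0.05): 8 of 9 between EBC-1 and PC-9, 8 of 9 between EBC-1 and HCC827 and 7 of 9 between PC-9 and HCC827, beside 70.3%, 69.4% and 64.6% of all genes. AGFG2 and CAPN5 were highest in EBC-1. The AGFG2 mean was 52.5 FPKM there against 11.1 in PC-9 (2.15 ± 0.14, adjusted p = 5.42e-07) and 7.63 in HCC827 (2.63 ± 0.14, adjusted p = 1.50e-07). CAPN5 was at 24.4 FPKM in EBC-1, and its levels in PC-9 and HCC827, 9.69 and 8.47 FPKM, were not called different (0.17 ± 0.13, adjusted p = 0.252). ADGRF1, ARPC5 and DHTKD1 were highest in PC-9. The DHTKD1 mean was 17.3 FPKM there against 3.16 in HCC827 (2.14 ± 0.08, adjusted p = 2.33e-08). TRIM31 was lowest in EBC-1 (1.83 FPKM), then PC-9 (8.65) and HCC827 (13.4), with PC-9 minus HCC827 at -0.55 ± 0.15, adjusted p = 0.00896. ENDOD1 was lowest in EBC-1 (4.73 FPKM), and PC-9 (12.1) and HCC827 (12.1) were not called different (-0.00 ± 0.08, adjusted p = 0.971). ATP5J2 was lowest in PC-9 (56.8 FPKM), and EBC-1 (89.4) and HCC827 (97.01) were not called different (-0.12 ± 0.12, adjusted p = 0.398). BAIAP2-AS1 was the most even, at 6.54 FPKM in EBC-1 and 6.78 in PC-9 (-0.04 ± 0.08, adjusted p = 0.636) and 8.74 in HCC827. With libraries set to an equal sum, both BAIAP2-AS1 calls against HCC827 were lost (adjusted p = 0.3305 and 0.0619), and the differences for ATP5J2 between EBC-1 and HCC827 (log2 0.21, adjusted p = 0.00955) and for CAPN5 between PC-9 and HCC827 (0.33, adjusted p = 0.00869) were called. That scaling moved the median of all genes to 0.23 for EBC-1 minus HCC827, to 0.14 for EBC-1 minus PC-9 and to 0.09 for PC-9 minus HCC827, from -0.02, 0.02 and -0.05 as deposited.

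The nearest protein-coding gene on each side of the 9 genes, and all genes that overlap them, made 24 neighbors, of which 16, 16 and 15 were tested in EBC-1, PC-9 and HCC827. In EBC-1, 6 fell and 1 rose, beside 21.6% and 23.1% of all genes. In PC-9, 3 fell (ADGRF5, NYAP1 and RGL1) and none rose, beside 1.41% and 0.678%, and in HCC827, 4 fell and none rose, beside 20.7% and 17.2%. The median log2 differences of the neighbors were -0.23, -0.15 and -0.17. OMP, which overlaps CAPN5, was not called in EBC-1, where alone it was tested, and RNU6-88P, which lies within DHTKD1, was under the level tested in all lines. The PC-9 count was 0 when nc replicate 3 or any shSYK replicate was left out.

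**Figure D4:**
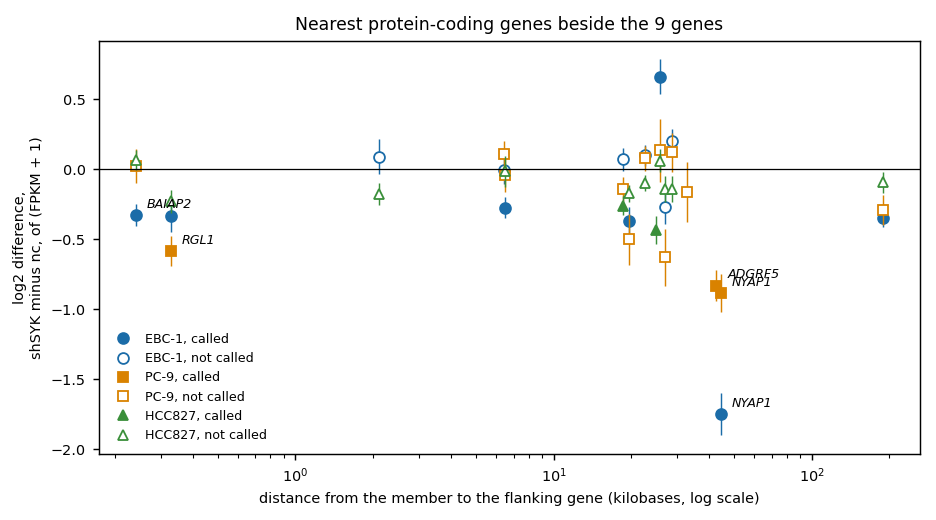
Log2 differences (shSYK minus nc, of FPKM + 1, vertical axis, with standard errors) of the nearest protein-coding neighbors against their distance from the gene in kilobases (horizontal log axis), by cell line; filled symbols passed the test and open symbols did not. NYAP1 in EBC-1 lies lowest, at -1.75, and ADGRF5 and NYAP1 in PC-9 lie at -0.83 and -0.88.

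The profile of each gene over the 6 group means of log2(FPKM + 1), centred on its own mean, was compared with those of 10021 other genes by the root mean square difference, without a test. This difference grows with the spread of the gene itself, so it is also given as a percent of that spread. CAPN5 was closest to B3GAT3 (a difference of 0.133, 16.03% of its own spread), DHTKD1 to SEZ6L2 (0.143, 16.4%) and BAIAP2-AS1, with the smallest spread of the 9, to MFSD9 (0.0843, 19.8%). The other nearest genes were at 18.8% to 31.5% of the spread. For comparison, the median difference from all other genes was 0.589 (BAIAP2-AS1) to 1.24 (AGFG2). ADGRF1 was closest to SLC45A3 (0.181), ATP5J2 to MLEC (0.208), AGFG2 to ORAI2 (0.222) and TRIM31 to LRG1 (0.292). ENDOD1 and ARPC5 had the same nearest gene, RXRA, at 0.171 and 0.2002. SYK was the next nearest to ATP5J2, at 0.218, and this is named after its value was seen. The 6 means share their libraries with the differences above, so likeness here includes the lower level in shSYK cells that chose the 9 genes.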

How the data were processed

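RNA-seq was carried out on 18 libraries, 3 nc and 3 shSYK libraries from each of EBC-1, PC-9 and HCC827 cells. According to the methods, TRIzol was used to extract RNA, an Illumina HiSeq instrument to sequence it, and reads were mapped to hg38. The submitters' processing notes name CASAVA and HISAT2 without versions. The counting program, its strand setting and the annotation release are not given in the sources used here. The authors deposited FPKM values of 58302 genes in a separate table per cell line, scaled by gene length and by a denominator per library whose definition is not stated. In each library, FPKM multiplied by gene length was a whole multiple of 1 constant (100% of values, tolerance 0.01). The reads behind each gene were thus recovered, for depths (7920099 to 15729103 per library) and for 1 alternative fit. The denominator was 0.883 to 1.07 times the summed reads. Read numbers show counting error only.

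Groups followed the labels. Levels were compared with limma 3.58.1 in R 4.3.3, with a variance trend, on log2(FPKM + 1) of genes with a mean of at least 1 FPKM over the libraries of a fit, two-sided, with Benjamini-Hochberg adjustment over all genes tested and a threshold of 0.05. Each shSYK against nc contrast used the 6 libraries of its cell line, and nc levels were compared across lines in the 9 nc libraries. The method was tested on simulated reads, drawn independently for each gene and library. Shifts shared by many genes of a library were not simulated, so the simulation says nothing on fits where single libraries matter. The 9 genes and the lists of relatives were chosen with earlier results of these data known, so the 9 genes have no p-value for shSYK against nc. Relatives are named when called alike in all lines tested, when furthest from 0 in a line, or as the closest paralogue, and neighbors when called in at least 2 lines or when overlapping. Genes outside this rule are said to be named after their values were seen. Replicates differed beyond sampling noise (chi-square per degree of freedom 2.11 to 38.7). The sources used here do not say whether replicate numbers pair the libraries, and the main fits used no replicate block. The settings varied were the pseudocount (0.1), the filter (none, or 5 FPKM), the scaling to an equal sum per library, quantile normalization, voom on recovered reads, a replicate block and leaving out each library. Start windows came from RefSeq (GRCh38.p14) and transcripts from GENCODE v44. Python 3.11.15, numpy 2.4.6, pandas 2.3.3 and matplotlib 3.10.9 were used.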

Additional observations from a re-analysis of the deposited data

Results flagged for a closer look

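Only related genes and neighbors named by the rule were screened here. They drew attention where all shSYK libraries of 1 line lay above its nc libraries while those of another line lay below. The difference between the lines was not tested, and the share of all genes with such a split was not counted. In single lines, 11.4% to 29.7% of all genes tested lay apart without overlap in a given direction. ALDH7A1, the aldehyde dehydrogenase of lysine breakdown, had a log2 difference of -0.26 in EBC-1 and 0.56 in HCC827. CTTN, which encodes cortactin, had -0.24 in PC-9, not called by limma (adjusted p = 0.302), and 0.42 in EBC-1. SMAP2, an ArfGAP gene, had -0.20 in PC-9 and -0.16 in HCC827, neither called by limma (adjusted p = 0.365 and 0.0605), but 0.46 in EBC-1. None of the 9 genes themselves was of this kind, since the choice of the genes fixed a lower level in every line. Groups of 3 libraries were too small for the check of single libraries that stand apart.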

How the results depend on the processing

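The log2 differences of the 9 genes were -2.28 to -0.21 in the 344 values recomputed under the alternatives. All were below 0, but the genes were chosen for a lower level in these same data, so this sign is not evidence of stability. Of these values, 32 moved by more than the SD between replicates, 9 under an equal sum, 10 with a pseudocount of 0.1, 3 under quantile normalization and 10 with voom. For single related genes, neighbors and nc levels, 1033 of 1144 recomputed values kept their direction and side of the threshold, 77 lost a call, 13 gained one and 21 changed sign, and the cause was not tested. In PC-9, the 253 genes called became 491 under an equal sum, 505 under quantile normalization and 47 without a filter, and 7 to 621 when 1 library was left out. In EBC-1, 5562 became 3579 with the filter at 5 FPKM, which tests fewer genes, and 3761 to 6309 without 1 library. HCC827 ranged from 3362 to 3949 without 1 library. That filter gave 5306, 5228 and 4891 called genes for nc levels of EBC-1 minus PC-9, EBC-1 minus HCC827 and PC-9 minus HCC827 (8926, 8811 and 8202 as deposited), and leaving out 1 library gave 8108 to 9383, 8022 to 9536 and 7231 to 8681. An equal sum changed the split of higher and lower calls from 2876 and 2686 to 4019 and 1901 in EBC-1, where it moved the median of all genes to 0.12, from 2066 and 2488 to 2482 and 1905 in HCC827, and from 4266 and 4545 to 5640 and 3267 for nc levels of EBC-1 minus HCC827. Without a filter, 21 relatives were called in EBC-1 in place of 34 (21 to 36 without 1 library). In HCC827, 23 became 15 to 20 without 1 library. In PC-9, 1 became 3 under an equal sum, 2 under quantile normalization, 2 with voom and 0 to 5 without 1 library. Neighbors called in EBC-1 fell from 7 to 4 under the filter at 5 FPKM and the replicate block (4 to 8 without 1 library). In HCC827 they went from 4 to 2 under that filter (2 to 5), and in PC-9 from 3 to 1 under that filter and 1 without a filter (0 to 3). Signs changed for AGFG1 in PC-9 (-0.019 under an equal sum, -0.101 to 0.074 without 1 library), for CPSF4 in PC-9 (0.011 under quantile normalization, 0.023 with voom, -0.138 to 0.082 without 1 library), for BAIAP2 in PC-9 (-0.052 to 0.133 without 1 library) and for ARPC5L in HCC827 (-0.0037 to 0.062). Among nc levels they changed for ATP5J2, EBC-1 minus HCC827 (0.21 under an equal sum, 0.024 under quantile normalization), for BAIAP2-AS1, EBC-1 minus PC-9 (0.087 under an equal sum), and for ENDOD1, PC-9 minus HCC827 (0.16, 0.035 and 0.012 under an equal sum, quantile normalization and voom, and -0.055 to 0.037 without 1 library). The replicate numbers were tried as a block although libraries of the same number did not deviate together in every pair (correlations -0.219 to 0.325), and not every library correlated best with its own number. With the replicate block, 4326 (EBC-1), 172 (PC-9) and 4111 (HCC827) genes were called. Depth limits low genes most, such as TRIM31 in EBC-1 with as few as 16 reads.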
